A study of Mus musculus with 12 samples.

Results

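Solute carriers are a large superfamily of membrane transport proteins, and the genes described here are those of them that brain myeloid cells expressed above a low level. The members are the protein-coding mouse genes whose symbol starts with Slc and a digit and whose mean level over all 12 libraries was at least 10 CPM (counts scaled to a library total of 1e6). Of 375 such carrier genes among 36528 gene numbers listed, 113 met the rule. Another 255 lay under the threshold, and 7 (carriers of glutamate, hexoses and divalent metals) were left out by name although they passed it. The mean over both groups chose the members, so their presence and mean level are a description and not a result, and the members were chosen with earlier results of these data known. Slc4a1ap and Slc7a6os carry the prefix but encode an adaptor protein and a gene on the strand opposite to Slc7a6, not carriers, and were kept because the rule includes them.

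Solute carriers move amino acids, sugars, nucleotides, vitamins, ions and metals across the plasma membrane, the membranes of endosomes and lysosomes, the Golgi, the endoplasmic reticulum and the inner mitochondrial membrane, and most run on gradients of sodium, protons or their own substrates. Microglia, the resident macrophages of the brain, depend on them for glutamine and cystine supply, for the export of degraded cargo from lysosomes, and for the control of volume, pH and calcium. Families are named by number (Slc25 is the mitochondrial carrier family, Slc35 the nucleotide sugar carriers, Slc30 and Slc39 the zinc exporters and importers), and the members were sorted into 8 role groups by family.

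The RNA was that of Cd11b-positive myeloid cells sorted from the brain, and all mice were 6-month-old males. The hMAPT-P301S group (6 libraries) carried a transgene for human tau with the P301S change, and the Non-Tg group (6 libraries) was made up of littermates that lacked it. The labels name neither the promoter of the transgene nor the strain nor any other allele. They tie no library to a batch, litter or pair, and do not state that each is a separate animal, so the p-values rest on the spread among libraries, which may be technical.

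Libraries held 1196069 to 4145069 counts. Mitochondrial genes took 10.0% to 19.2% of the counts in Non-Tg and 15.0% to 32.1% in hMAPT-P301S, and the nuclear RNA Malat1 took 12.4% to 19.2% and 7.82% to 10.6%. The summed level of 10 microglial markers was 9576 to 12928 CPM in Non-Tg and 4466 to 6842 in hMAPT-P301S, with 6 of the 10 lower in hMAPT-P301S by the test. The summed markers of 10 neuronal genes ran from 70.2 to 184 CPM in Non-Tg and from 32.9 to 152 in hMAPT-P301S. Those of astrocytes ran from 137 to 859 and 164 to 745 (Gfap rose, 1 of 7 tested), and of oligodendrocytes from 199.5 to 288.5 and 190 to 494 (0 of 5 passed). Markers of border macrophages (10.1 to 74.9 and 20.3 to 47.1 CPM), monocytes (16.4 to 335 and 20.3 to 79.0) and neutrophils (481 to 784 and 735 to 1018, nearly all Csf3r) held 0 genes that passed. Markers of T and B cells (4.83 to 23.5 and 0 to 23.2 CPM) and choroid plexus (0.812 to 18.1 and 0.317 to 30.9) were too low to test. Endothelial and mural markers ran from 28.5 to 126 and 72.01 to 125 CPM, with Flt1 higher (1 of 4 tested) and Cldn5 at 0 in every library. In sorted bulk RNA, fewer cells of a type and less RNA per cell cannot be told apart.

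The 113 carriers together took 0.427% to 0.729% of the counts of a library, and the 2 groups overlapped (0.509% to 0.713% in Non-Tg and 0.427% to 0.729% in hMAPT-P301S). The order of the role groups by median share of these counts differed between the genotypes. In Non-Tg, carriers of inorganic ions came first (25.3%), before those of amino acids and peptides (18.8%), the 5 organic acid carriers (15.04%) and the mitochondrial carriers (13.9%). In hMAPT-P301S, amino acid and peptide carriers came first (24.3%), before inorganic ions (22.9%), mitochondrial carriers (12.8%) and organic acids (11.98%). These differences of order were not tested, and the shares depend on each other and on single high genes. Slc16a6, the highest of the organic acid carriers by mean CPM, averaged 669 CPM in Non-Tg and 468 in hMAPT-P301S. Slc25a37, the highest of the mitochondrial carriers, averaged 353 and 171. Of the 18 mitochondrial carriers, 12 had a log2 fold change above 0 and 6 below. Over all libraries, carriers of nucleosides, vitamins, lipids and organic ions held a median of 10.96%. Metal carriers held 8.46%, Golgi and endoplasmic reticulum carriers 5.94% and sugar carriers 1.85%. The share of amino acid and peptide carriers ran from 17.2% to 22.0% in Non-Tg and from 21.6% to 25.5% in hMAPT-P301S, so that the ranges overlapped between 21.6% and 22.0%.

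Levels of different genes were compared per length, on the RPKM scale deposited by the authors. The gene with the highest level was Slc16a6, a member of the monocarboxylate transporter family, with 29.3 ± 8.79 RPKM in Non-Tg (SD, n = 6, range 19.5 to 41.5) and 20.5 ± 3.32 in hMAPT-P301S (range 17.3 to 25.0). In Non-Tg, Slc25a37, the mitochondrial iron importer mitoferrin, came second with 16.6 ± 4.21 RPKM (range 13.7 to 25.0), and Slc29a3, a nucleoside carrier of lysosomes, came next with 14.1 ± 4.16 (range 10.1 to 21.1). These neighbours overlapped in range, and so did Slc25a37 and Slc16a6. Among the genes that followed in Non-Tg were the mitochondrial phosphate carrier gene Slc25a3 (8.17 ± 4.96 RPKM), the neutral amino acid exchanger gene Slc7a8 (8.05 ± 2.30) and the endosomal sodium-proton exchanger gene Slc9a9 (7.61 ± 1.14), which did not differ from each other beyond their spread. In hMAPT-P301S, Slc16a6 was again first, Slc15a3, a lysosomal carrier of histidine and peptides, second (12.97 ± 5.03 RPKM, range 9.19 to 22.7), Slc29a3 the third (11.6 ± 2.54) and Slc25a37 eighth (8.03 ± 4.04, range 4.70 to 13.9).

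**Figure D1:**
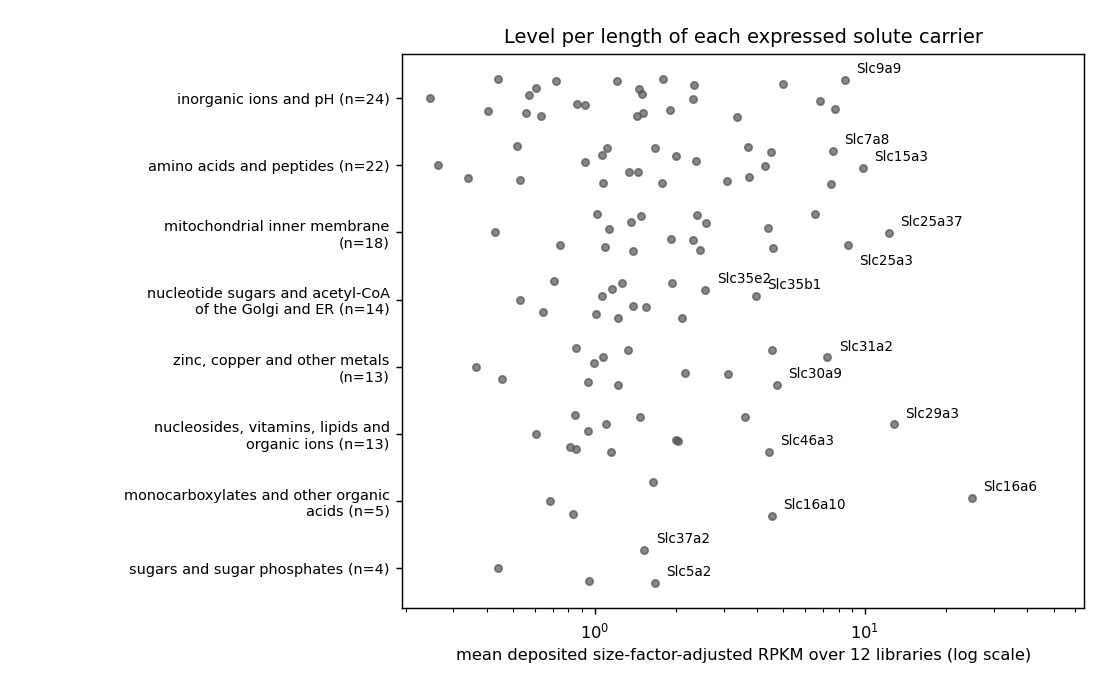
Mean deposited RPKM over 12 libraries (x axis, log scale) of each of the 113 expressed solute carriers (points) by role group (rows, with the number of genes); up to 2 of the highest genes of each group are named. Slc16a6 stands highest at 24.9 RPKM, followed by Slc29a3 at 12.9 and Slc25a37 at 12.3.

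The genotype comparison was fitted over all genes with edgeR's quasi-likelihood test. Of the 113 carriers 112 were tested, and 1 of them, Slc25a37, fell in hMAPT-P301S while 0 rose at an adjusted p under 0.05. That is 0.893% of the tested members, against 3.87% of all 10022 genes tested (2.37% higher and 1.50% lower) and 4.80% of the 7774 tested genes with a mean of at least 10 CPM. At an unadjusted p under 0.05, 9 members were higher and 7 lower, 14.3% of those tested against 15.8% of all genes (8.02% higher and 7.74% lower). The median log2 fold change of the tested members was -0.01, beside -0.02 for all genes tested, with 55 members above 0 and 57 below. DESeq2 called 4 members (3.57%, against 7.40% of all genes), namely Slc25a37, Slc30a10 and Slc30a4 as lower and Slc26a1 as higher. Of these, Slc30a10 met the member rule through Non-Tg and Slc26a1 through hMAPT-P301S, so their differences are tied to their selection.

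**Figure D2:**
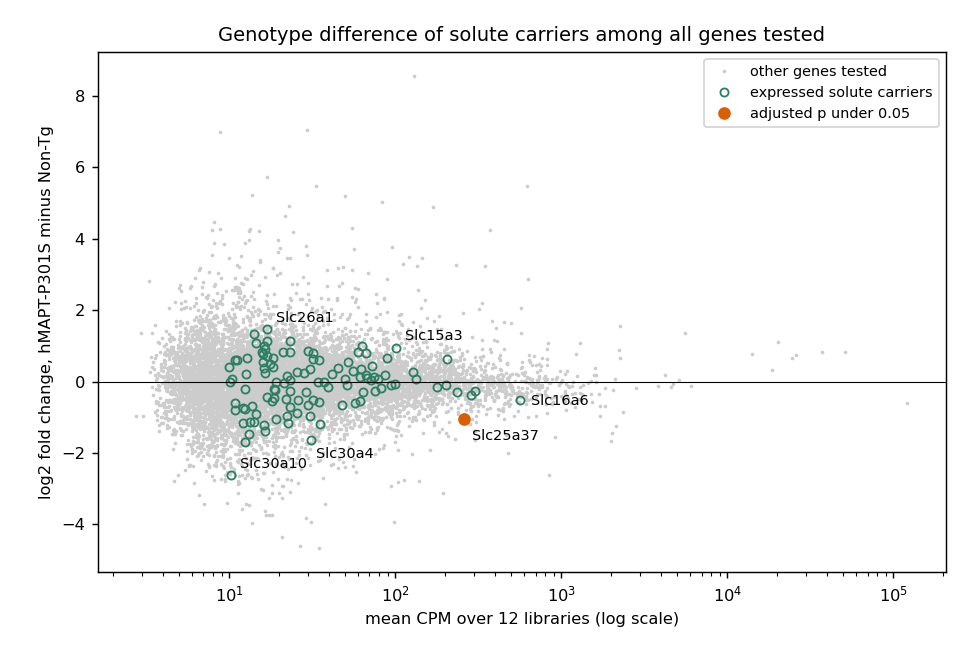
Log2 fold change of hMAPT-P301S minus Non-Tg (y axis) against mean CPM over 12 libraries (x axis, log scale) for all genes tested (grey), the 112 tested solute carriers (green circles) and the member past an adjusted p of 0.05 (orange). The carriers lie between -2.62 and 1.47, inside the cloud of the other genes.

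The precision of these estimates differed widely with level. For 22 of 112 members (19.6%, against 16.9% of all genes) the 95% interval of the log2 fold change, not adjusted for the number of genes, lay wholly between -1 and 1, so that a change of 2-fold or more fell outside the interval. Of the 12 carriers with the highest mean CPM, 8 were in that set, among them Slc29a3 (interval -0.73 to 0.18), Slc8a1, the sodium-calcium exchanger gene (-0.80 to 0.07), Slc7a8 (-0.64 to 0.34), Slc12a2, the sodium-potassium-chloride cotransporter gene (-0.67 to 0.48), Slc9a9 (-0.23 to 0.79) and Slc36a1, a proton-coupled amino acid carrier of lysosomes (-0.66 to 0.51). At the low end Slc7a11, the cystine-glutamate exchanger gene, had an interval of -1.63 to 1.61 around a log2 fold change of -0.01, so a difference of 2-fold in either direction was not detectable at this depth and spread. Within a group the median coefficient of variation of the members was 63.5% in Non-Tg and 52.1% in hMAPT-P301S. Slc9a9 was the steadiest in Non-Tg, at 15.7%.

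**Figure D3:**
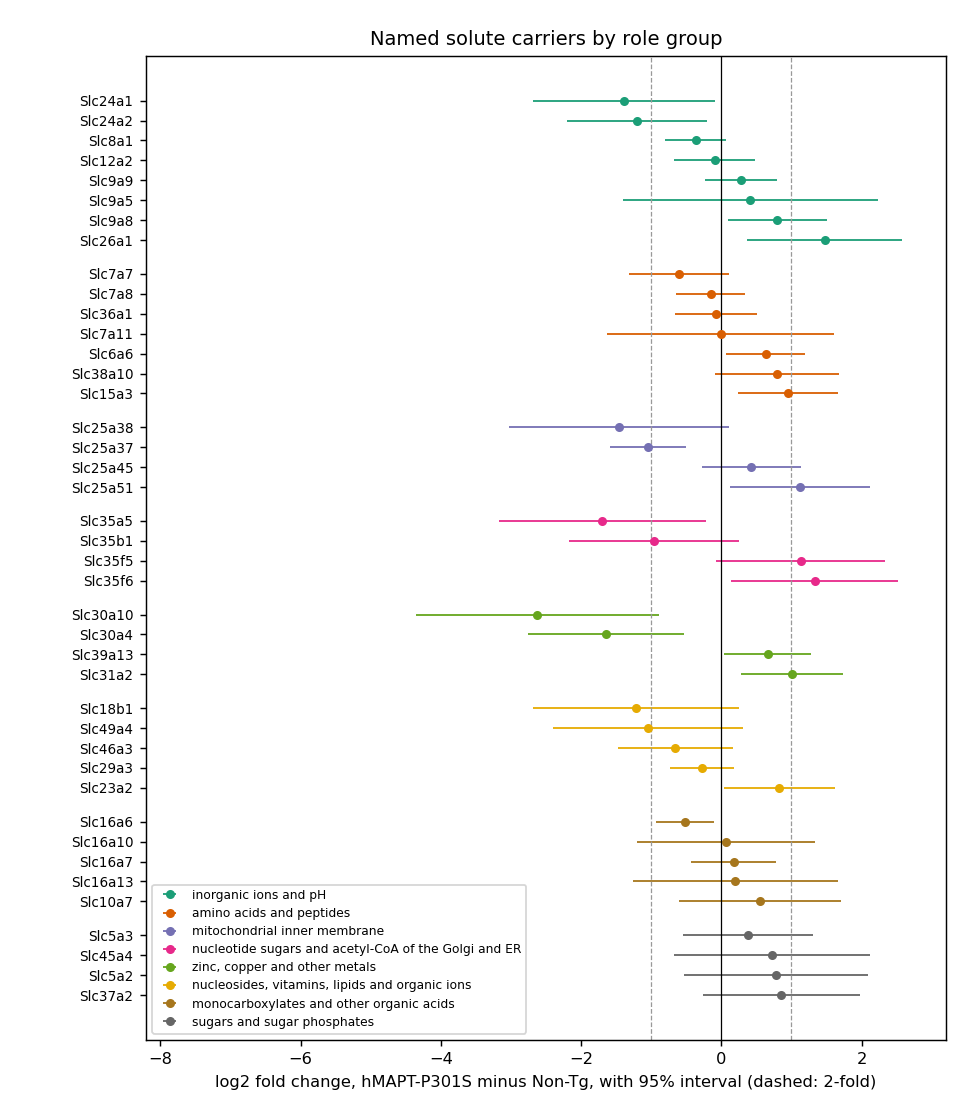
Log2 fold change of hMAPT-P301S minus Non-Tg (points) with its 95% interval (bars, x axis) for named solute carriers (rows), coloured by role group; dashed lines mark 2-fold. Slc25a37 has the interval from -1.59 to -0.50, while Slc30a10 and Slc9a5 have wide ones.

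Among the 18 mitochondrial carriers, Slc25a37 was the member that fell. Mitoferrin brings iron into the mitochondrial matrix for heme and iron-sulfur cluster synthesis. Its gene (chromosome 14, 69241848 to 69285544 of GRCm38) measured 288, 326 and 530.1 CPM in Non-Tg (lowest, median and highest library) and 100.4, 128 and 296 in hMAPT-P301S. Of the hMAPT-P301S libraries 2, 3, 4 and 5 lay between 100 and 131 CPM, far below every Non-Tg library, whereas hMAPT-P301S 1 (267 CPM) lay just below the lowest Non-Tg library and hMAPT-P301S 6 (296 CPM) above it. The means were 353 ± 88.8 CPM in Non-Tg and 171 ± 87.1 in hMAPT-P301S (SD, n = 6 each), a log2 fold change of -1.04 ± 0.27 (SE) with an adjusted p of 0.0218. The call was lost without Non-Tg 4, at 530 CPM the highest library (log2 fold change -0.88, adjusted p = 0.0874), without hMAPT-P301S 2, 3, 4 or 5 (adjusted p = 0.0645, 0.0757, 0.0537 and 0.0665) and with a filter at a mean of 1 CPM (0.0684). Over all 21 alternatives the log2 fold change stayed between -1.27 and -0.58 and the adjusted p between 0.00731 and 0.417.

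The mitochondrial share of counts moved with Slc25a37 between the hMAPT-P301S libraries. It was 15.0% and 18.7% in hMAPT-P301S 1 and 6, which had the higher Slc25a37 levels, and 24.9% to 32.1% in the other 4. In Non-Tg the library with the largest mitochondrial share (Non-Tg 4, 19.2%) had the highest Slc25a37 level and that with the smallest (Non-Tg 6, 10.0%) had 306 CPM. With the mitochondrial share as a covariate, an alternative chosen after seeing the data, the log2 fold change of Slc25a37 was -0.58 (adjusted p = 0.417), and 2.66% of all genes were called. The part of the mitochondrial share in the result was not tested further. Of the 2 antisense genes whose exons overlap it, Gm31748 was at 0 in all libraries. Of 5 markers of erythroid cells, which use mitoferrin heavily (a list added after seeing the data), the summed level was 1.18 to 16.2 CPM in Non-Tg and 0.317 to 5.42 in hMAPT-P301S.

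**Figure D4:**
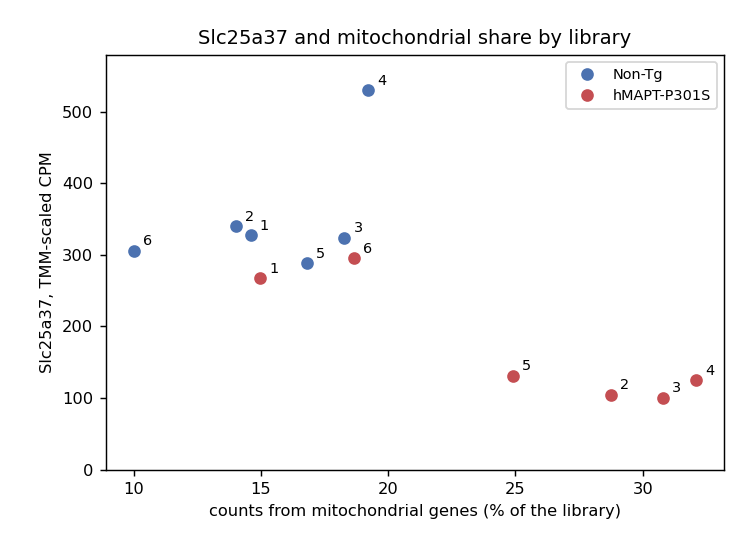
Slc25a37 in TMM-scaled CPM (y axis) against the percent of counts from mitochondrial genes (x axis) in each library, with replicate numbers. The 4 hMAPT-P301S libraries at 24.9% or more lie between 100 and 131 CPM, and the other 8 libraries lie at 267 CPM or more.

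The other 17 mitochondrial carriers did not pass, while 3.87% of all genes tested did. The median log2 fold change of all 18 carriers was 0.13, with 12 above 0. Slc25a28, the second mitoferrin gene, measured 24.0 ± 13.2 CPM in Non-Tg and 29.0 ± 8.63 in hMAPT-P301S and had a log2 fold change of 0.28 ± 0.46 (adjusted p = 0.849). Slc25a51, which encodes the mitochondrial NAD carrier, measured 5.48, 17.4 and 20.7 CPM in Non-Tg and 13.8, 32.6 and 53.0 in hMAPT-P301S, a log2 fold change of 1.12 ± 0.49 (adjusted p = 0.238). Its groups overlapped only through hMAPT-P301S 3. Slc25a38, the glycine carrier that feeds heme synthesis, measured 2.03, 10.1 and 83.1 CPM in Non-Tg and 1.29, 7.60 and 12.4 in hMAPT-P301S (-1.46 ± 0.76, adjusted p = 0.364), with the high value in Non-Tg 3 alone. Slc25a45 had a log2 fold change of 0.43 ± 0.34. The remaining log2 fold changes in this family were those of the phosphate carrier Slc25a3 (0.19 ± 0.40), the adenine nucleotide exchanger Slc25a4 (-0.03 ± 0.57), the oxoglutarate carrier Slc25a11 (0.06 ± 0.49), the aspartate-glutamate carrier Slc25a12 (0.41 ± 0.61), the pyrimidine nucleotide carrier Slc25a36 (0.08 ± 0.35) and the peroxisomal carrier Slc25a17 (0.65 ± 0.74). The ATP-phosphate carriers Slc25a23 (-0.29 ± 0.34) and Slc25a25 (0.90 ± 0.75), the carrier of branched-chain amino acids Slc25a44 (-0.56 ± 0.67), and Slc25a27 (-0.01 ± 0.59), Slc25a30 (0.17 ± 0.63), Slc25a43 (0.59 ± 0.84) and Slc25a46 (0.08 ± 0.38) complete the group.

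Of the 13 metal carriers 0 passed with edgeR, 4 had an unadjusted p under 0.05 and 2 were called by DESeq2. The corresponding shares of all genes tested were 3.87%, 15.8% and 7.40%. The median log2 fold change was -0.52, with 9 of 13 below 0. The 2 called by DESeq2 belong to the Slc30 family, which moves zinc or manganese out of the cytosol. Slc30a10, an exporter of manganese at the cell surface (chromosome 1, 185454848 to 185468762), measured 4.32, 11.6 and 46.3 CPM in Non-Tg and 0, 2.27 and 7.75 in hMAPT-P301S. All 6 hMAPT-P301S libraries were at or below 7.75 CPM, but Non-Tg 1, 2 and 6 also lay at 7.71 or less, so the groups overlapped. Its log2 fold change was -2.62 ± 0.85, the most negative estimate among the members, with an adjusted p of 0.0819 in edgeR that did not pass and 0.0179 in DESeq2. Slc30a4, a zinc carrier of endosomal vesicles (chromosome 2, 122681233 to 122702663), measured 5.10, 39.4 and 102 CPM in Non-Tg and 8.36, 13.8 and 33.6 in hMAPT-P301S, a log2 fold change of -1.65 ± 0.54 (adjusted p = 0.0897, 0.0331 in DESeq2). With the mitochondrial share as a covariate both passed, at log2 fold changes of -4.89 (adjusted p = 0.0106) for Slc30a10 and -2.79 (0.0151) for Slc30a4. Slc30a10 entered the members through the Non-Tg libraries, with a mean of 17.9 CPM of library totals there and 2.70 in hMAPT-P301S, so that its difference is tied to its selection.

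DESeq2 called Slc30a10, Slc30a4 and Slc26a1 besides Slc25a37, which had no entry in the promoter table. Slc30a10 and Slc26a1 met the member rule through the group where they were higher, so their calls are tied to their selection. Shown are the stretches of 250 bases before the annotated starts of Slc30a10, Slc30a4 and Slc26a1. They come from RefSeq on GRCm38.p6, where 89 of the 113 members were found, and are written 5′ to 3′ on the strand of the gene, with motif matches in capitals. They cover chr1:185454598-185454847 (plus strand) for Slc30a10 and chr2:122702664-122702913 (minus strand) for Slc30a4. For 2 annotated starts of Slc26a1 they cover chr5:108675366-108675615 and chr5:108674797-108675046 (both minus strand). Both Slc26a1 windows lie inside the gene (108669878 to 108678380), and the stretch before its outermost end on that strand is not shown.
Slc30a10: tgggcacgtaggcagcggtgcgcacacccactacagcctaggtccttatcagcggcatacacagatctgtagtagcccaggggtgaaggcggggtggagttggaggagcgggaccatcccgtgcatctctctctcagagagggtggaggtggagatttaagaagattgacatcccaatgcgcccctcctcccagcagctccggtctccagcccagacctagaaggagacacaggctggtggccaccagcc
Slc30a4: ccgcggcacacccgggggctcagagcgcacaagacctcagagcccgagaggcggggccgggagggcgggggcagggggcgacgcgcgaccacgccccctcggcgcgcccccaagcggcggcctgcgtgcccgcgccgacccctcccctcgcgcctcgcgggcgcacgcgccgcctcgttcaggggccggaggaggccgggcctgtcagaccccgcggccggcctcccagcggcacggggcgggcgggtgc
Slc26a1, first start: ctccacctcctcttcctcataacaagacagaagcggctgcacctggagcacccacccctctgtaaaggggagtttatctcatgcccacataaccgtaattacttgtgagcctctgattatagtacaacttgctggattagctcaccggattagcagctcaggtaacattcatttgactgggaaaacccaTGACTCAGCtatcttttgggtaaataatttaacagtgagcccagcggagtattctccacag
Slc26a1, second start: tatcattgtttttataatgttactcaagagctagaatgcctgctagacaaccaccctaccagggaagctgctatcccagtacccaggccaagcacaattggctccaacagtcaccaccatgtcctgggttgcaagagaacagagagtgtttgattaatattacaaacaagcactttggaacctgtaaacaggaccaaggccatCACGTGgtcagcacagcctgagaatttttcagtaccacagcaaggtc
On both strands 3 motifs were searched: CACGTG, the core of the element bound by the lysosomal regulators Tfeb and Tfe3, TGATGNAA, an element bound by Atf4 with C/EBP partners, and TGACNNNGC, the core of the antioxidant response element. The windows of Slc30a10 and Slc30a4 held none of the 3, and G and C made up 60.8% and 82.8% of their bases. The first Slc26a1 window held TGACNNNGC and the second held CACGTG. In the same 250-base window, CACGTG was found for 11 of 89 members (12.4%, against 7.77% of 17001 protein-coding genes), TGATGNAA for 4 (4.49%, against 3.51%) and TGACNNNGC for 17 (19.1%, against 12.2%). These matches describe letters only, and base composition was not matched.

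Copper and the other zinc carriers varied in sign. Slc31a2, a copper carrier of endosomes and lysosomes, measured 18.1, 44.8 and 63.4 CPM in Non-Tg and 45.6, 75.7 and 135 in hMAPT-P301S. The highest Non-Tg library (63.4 CPM) exceeded 2 of the 6 hMAPT-P301S libraries, and the log2 fold change of 1.01 ± 0.36 did not pass (adjusted p = 0.118). Slc31a1, the copper importer of the cell surface, measured 43.4 ± 38.2 CPM in Non-Tg and 28.9 ± 15.1 in hMAPT-P301S (-0.58 ± 0.51, adjusted p = 0.664). Slc39a13, which moves zinc out of vesicles and the Golgi, measured 47.1, 55.3 and 116 CPM in Non-Tg and 72.3, 111 and 159 in hMAPT-P301S (0.66 ± 0.30, adjusted p = 0.270). Its exons overlap those of the antisense gene Psmc3 (log2 fold change 0.10). The zinc importers Slc39a6 (-0.20 ± 0.67), Slc39a7 (-0.52 ± 0.53), Slc39a9 (-1.15 ± 0.59) and Slc39a10 (-0.71 ± 0.52) had negative estimates and Slc39a14 (0.82 ± 0.67) a positive one. The intracellular zinc carriers were Slc30a7 (-0.01 ± 0.47) and Slc30a9 (0.04 ± 0.33). Estimates of Slc39a6, Slc39a7, Slc30a7 and Slc30a9 were closer to 0 than their SE. Slc39a12, a zinc importer known from astrocytes, had 20.5 ± 6.60 CPM in Non-Tg and 9.38 ± 11.0 in hMAPT-P301S (-1.13 ± 0.74, adjusted p = 0.506, and 0.0377 with the mitochondrial share as a covariate). Slc39a12 met the member rule through Non-Tg, with a mean of 20.1 CPM of library totals there and 8.25 in hMAPT-P301S. The difference of Slc39a12 is therefore tied to its selection. The summed astrocyte markers had medians of 465 CPM in Non-Tg and 447 in hMAPT-P301S, a sum weighted to the highest of them. Single markers differed: Gfap had means of 3.14 CPM in Non-Tg and 19.8 in hMAPT-P301S and passed, and the other 6 tested did not. The part of these markers in the Slc39a12 result was not tested.

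**Figure D5:**
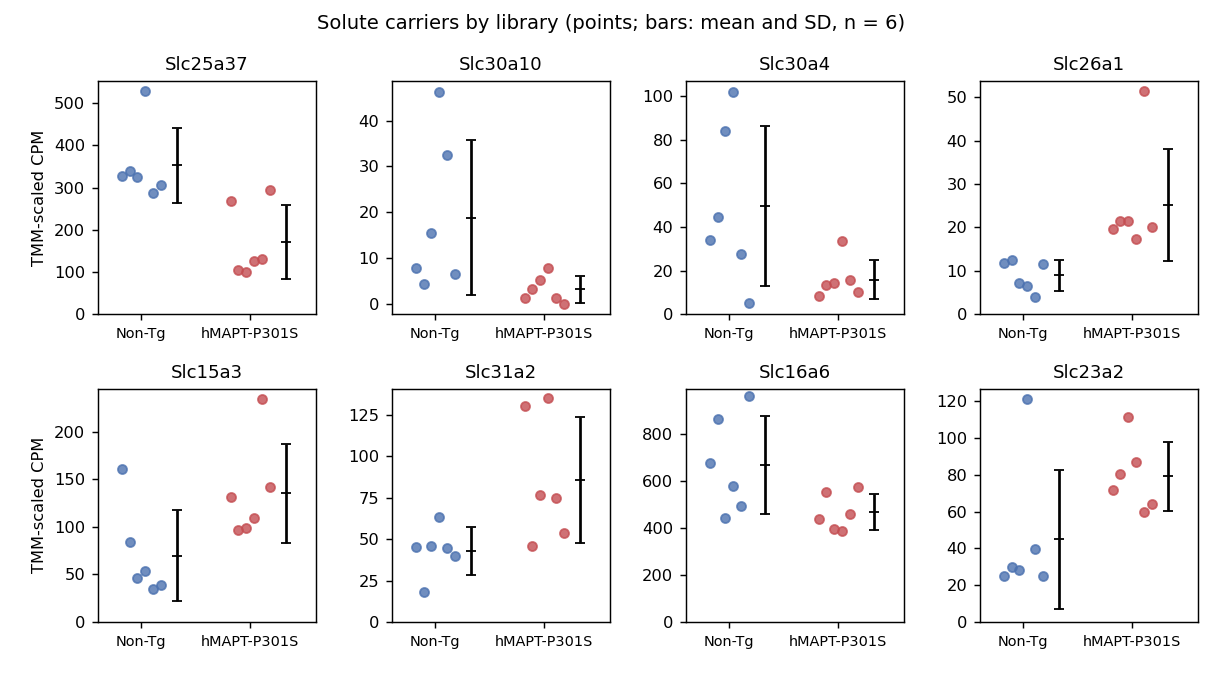
TMM-scaled CPM of 8 solute carriers in each library (points) with the mean and SD of 6 libraries (bars) in Non-Tg and hMAPT-P301S. The groups do not overlap for Slc26a1, and 5 of 6 hMAPT-P301S libraries lie below all Non-Tg libraries for Slc25a37.

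Of the 24 carriers of inorganic ions 0 passed with edgeR, 4 had an unadjusted p under 0.05 and 1 was called by DESeq2. Over all genes tested the shares were 3.87%, 15.8% and 7.40%. The median log2 fold change of the 24 was -0.42 (8 above 0, 16 below). Slc26a1, a sulfate and oxalate exchanger (chromosome 5, 108669878 to 108678380), measured 4.06, 9.42 and 12.6 CPM in Non-Tg and 17.4, 20.8 and 51.4 in hMAPT-P301S. It was the only member whose groups did not overlap, beside 2.24% of all genes tested that lay wholly higher in hMAPT-P301S and 1.05% wholly lower. Its means were 8.94 ± 3.49 CPM in Non-Tg and 25.2 ± 12.9 in hMAPT-P301S, a log2 fold change of 1.47 ± 0.54 with an adjusted p of 0.134 that did not pass, and 0.0300 in DESeq2. It lay under 10 CPM in Non-Tg and passed the member rule through hMAPT-P301S, so that its difference is tied to its selection. Its exons overlap those of Idua, the lysosomal iduronidase gene on the opposite strand, which measured 25.1 CPM in Non-Tg and 37.9 in hMAPT-P301S (log2 fold change 0.59, adjusted p = 0.607). The strandedness of the libraries is not given, so reads of the 2 genes cannot be told apart where they overlap.

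Exchangers of sodium with protons and calcium were measured at all levels. Slc9a8, a sodium-proton exchanger of the Golgi, measured 17.8, 49.6 and 80.8 CPM in Non-Tg and 58.1, 84.9 and 110.1 in hMAPT-P301S (0.80 ± 0.35, adjusted p = 0.234). The exchangers Slc9a9 (0.28 ± 0.25) and Slc9a7 (0.11 ± 0.30) did not pass, nor did the low gene Slc9a5 (0.41 ± 0.89). Among calcium exchangers, Slc24a2 measured 29.2, 39.1 and 112 CPM in Non-Tg and 5.71, 20.9 and 44.5 in hMAPT-P301S (-1.20 ± 0.49, adjusted p = 0.196) and Slc24a1 12.2, 22.1 and 39.9 CPM in Non-Tg and 0.317, 9.23 and 17.9 in hMAPT-P301S (-1.38 ± 0.63, adjusted p = 0.275). Slc24a1 met the member rule through Non-Tg, with a mean of 23.9 CPM of library totals there and 9.16 in hMAPT-P301S. The difference of Slc24a1 is therefore tied to its selection. Slc24a2 is known from neurons, and the summed neuronal markers had medians of 121 CPM in Non-Tg and 69.1 in hMAPT-P301S. The part of these markers in the Slc24a2 result was not tested. Slc24a3 had -0.52 ± 0.45, the mitochondrial exchanger gene Slc8b1 -0.47 ± 0.58 and Slc8a1 -0.36 ± 0.21, from 326 ± 96.4 CPM in Non-Tg and 254 ± 33.4 in hMAPT-P301S.

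Chloride, bicarbonate, phosphate and magnesium carriers did not pass either. Slc12a2 measured 212 ± 75.4 CPM in Non-Tg and 199 ± 83.2 in hMAPT-P301S. Its relatives Slc12a7 (-0.80 ± 0.69) and Slc12a9 (-1.12 ± 0.60) were low genes with means of 14.1 and 18.8 CPM in Non-Tg. The bicarbonate carriers were Slc4a7 (-0.56 ± 0.40), Slc4a8 (-0.74 ± 0.79) and Slc4a4 (-0.98 ± 0.65). Slc4a4 is also on the astrocyte marker list, and its Non-Tg mean of 42.3 ± 57.6 CPM rested on Non-Tg 5 at 159 CPM. The phosphate importer Slc20a1 (0.22 ± 0.41), the sulfate carrier Slc26a2 (-0.87 ± 0.60), the magnesium carriers Slc41a1 (0.81 ± 0.63) and Slc41a3 (-0.59 ± 0.66) and the adaptor gene Slc4a1ap (0.31 ± 0.38) did not pass.

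Amino acid and peptide carriers numbered 22, of which 0 passed and 2 had an unadjusted p under 0.05, beside 15.8% of all genes tested. Their median log2 fold change was 0.23 (13 above 0, 9 below). Slc15a3 (chromosome 19, 10842544 to 10857915) measured 34.9, 49.6 and 161 CPM in Non-Tg and 96.5, 120.3 and 234 in hMAPT-P301S. All 6 hMAPT-P301S libraries exceeded 5 of the Non-Tg libraries, and Non-Tg 1, at 161 CPM, exceeded 5 of the hMAPT-P301S libraries. The log2 fold change was 0.95 ± 0.35 (adjusted p = 0.133), and without Non-Tg 1 it was 1.40 with an adjusted p of 0.0126 that passed. Its exons overlap those of the antisense gene Tmem132a, which had a log2 fold change of 0.81 (adjusted p = 0.259). Slc6a6, the taurine importer gene, measured 58.5, 161 and 264 CPM in Non-Tg and 168, 251 and 327 in hMAPT-P301S (0.63 ± 0.27, adjusted p = 0.237).

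The other amino acid carriers did not pass. Slc36a1 had a log2 fold change of -0.07 ± 0.28, Slc38a9, an arginine-responsive carrier that signals to mTORC1, 0.12 ± 0.36, Slc38a7, a glutamine exporter of lysosomes, 1.01 ± 0.67, and Slc15a4, a histidine and peptide carrier that supports Toll-like receptor signalling, -0.91 ± 0.61. At the cell surface, the exchangers Slc7a8 (-0.15 ± 0.24), Slc7a7 (-0.60 ± 0.35) and Slc7a6 (0.65 ± 0.53) share the heavy chain Slc3a2, which measured 26.4 ± 16.7 CPM in Non-Tg and 33.6 ± 19.5 in hMAPT-P301S (0.34 ± 0.58). The cationic amino acid importers Slc7a1 (0.83 ± 0.67) and Slc7a2 (-1.16 ± 0.75), the glutamine importers Slc38a1 (0.11 ± 0.31) and Slc38a2 (-0.28 ± 0.30), and Slc43a2, an importer of large neutral amino acids (-0.09 ± 0.30), did not pass. Slc7a11 measured 4.56, 8.93 and 26.5 CPM in Non-Tg and 1.29, 2.85 and 31.0 in hMAPT-P301S and was among the 3 members nearest above the threshold. The other members were Slc38a10 (0.80 ± 0.43), Slc38a6 (0.56 ± 0.41), Slc36a4 (1.08 ± 0.67), the peptide importer Slc15a2 (-0.48 ± 0.63), the heavy chain Slc3a1 (0.61 ± 0.68) and Slc7a6os (0.62 ± 0.54).

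The 5 organic acid carriers included the most abundant member, and 0 of them passed, beside 3.87% of all genes tested. Slc16a6 (chromosome 11, 109450855 to 109473598) measured 440.4, 626 and 963 CPM in Non-Tg and 388, 449 and 573 in hMAPT-P301S. Libraries 1, 3 and 4 of hMAPT-P301S lay below every Non-Tg library and the other 3 within the lower part of the Non-Tg range, and the log2 fold change of -0.52 ± 0.20 did not pass (unadjusted p = 0.0157, adjusted p = 0.168), with an interval of -0.93 to -0.11. Its exons overlap those of 2 antisense genes, Arsg (log2 fold change -0.59) and Amz2 (1.53), which did not pass. Slc16a10, a carrier of aromatic amino acids, varied between libraries, with 22.8, 93.5 and 342 CPM in Non-Tg and 70.4, 119.7 and 254 in hMAPT-P301S (0.07 ± 0.59). Slc16a7, a lactate and pyruvate carrier, was at 83.1 ± 25.8 CPM in Non-Tg and 93.9 ± 27.6 in hMAPT-P301S (0.18 ± 0.30), and the low genes Slc16a13 (0.20 ± 0.71) and Slc10a7 (0.56 ± 0.56) did not pass.

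Carriers of nucleosides, vitamins, lipids and organic ions numbered 13, of which 12 were tested and 0 passed. Of those tested, 1 had an unadjusted p under 0.05, beside 15.8% of all genes, and the median log2 fold change was -0.01. Slc29a3 measured 236, 316 and 497 CPM in Non-Tg and 165, 287 and 331 in hMAPT-P301S (-0.28 ± 0.22). Slc23a2, the ascorbate importer gene, measured 25.0, 29.1 and 121 CPM in Non-Tg and 60.0, 76.3 and 112 in hMAPT-P301S. In 5 Non-Tg libraries it was at 39.8 CPM or less, below all hMAPT-P301S libraries, and Non-Tg 4 stood at 121 CPM. The log2 fold change was 0.83 ± 0.39 (adjusted p = 0.290), and 1.44 without Non-Tg 4 (adjusted p = 0.0174), where it passed. The lysosomal carriers Slc46a3 (-0.66 ± 0.40), Slc49a4 (-1.05 ± 0.66), Slc17a5, the sialic acid exporter (-0.65 ± 0.53), and Slc66a1, the exporter of cationic amino acids (0.39 ± 0.58), did not pass. Neither did the choline carrier family members Slc44a1 (0.24 ± 0.44) and Slc44a2 (0.36 ± 0.35), the nucleoside carrier Slc29a1 (0.23 ± 0.64), the vesicular carriers Slc18a2, for monoamines (-0.25 ± 0.53), and Slc18b1, for polyamines (-1.22 ± 0.72), or Slc22a17 (0.61 ± 0.75).

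Family Slc35 is known for carriers that import nucleotide sugars and related substrates for glycosylation in the Golgi and endoplasmic reticulum. Its 14 members were grouped by family alone, whatever the location or substrate of each. None passed the edgeR test, 2 had an unadjusted p under 0.05 and 0 were called by DESeq2. Across all genes tested the shares were 3.87%, 15.8% and 7.40%. The median log2 fold change of the 14 was -0.20 (4 above 0 and 10 below). Slc35a5 measured 3.53, 19.0 and 39.8 CPM in Non-Tg and 0.645, 5.70 and 16.0 in hMAPT-P301S (-1.70 ± 0.72, adjusted p = 0.223), and Slc35f6 measured 2.74, 8.03 and 14.5 CPM in Non-Tg and 10.8, 20.1 and 28.3 in hMAPT-P301S (1.33 ± 0.58, adjusted p = 0.241). Slc35a5 met the member rule through Non-Tg, with a mean of 18.9 CPM of library totals there and 6.06 in hMAPT-P301S. Slc35f6 met it through hMAPT-P301S, with 7.93 in Non-Tg and 20.2 in hMAPT-P301S. The differences of these genes are therefore tied to their selection. Slc35f5 had 1.13 ± 0.59. Slc35b1, which exchanges ATP and ADP across the membrane of the endoplasmic reticulum, had -0.96 ± 0.59, and 0.08 without Non-Tg 3, whose level of 111 CPM stood far above the 11.4 to 18.1 of the other Non-Tg libraries. The sialic acid carrier Slc35a1 (-0.27 ± 0.54), the N-acetylglucosamine carriers Slc35a3 (-0.16 ± 0.48) and Slc35d2 (-0.67 ± 0.83), the sulfate donor carrier Slc35b3 (0.50 ± 0.68), the fucose carrier Slc35c1 (0.07 ± 0.68) and Slc35b4 (-0.28 ± 0.48), Slc35c2 (-0.21 ± 0.71), Slc35d1 (-0.09 ± 0.36), Slc35e1 (-0.43 ± 0.60) and Slc35e2 (-0.19 ± 0.30) complete the group. All 4 sugar carriers had estimates above 0 and 0 passed (median log2 fold change 0.75). They were the sugar phosphate carrier Slc37a2 (0.86 ± 0.54), the sodium-glucose importer Slc5a2 (0.78 ± 0.64), Slc45a4 (0.72 ± 0.68) and the inositol importer Slc5a3 (0.38 ± 0.45), the last with hMAPT-P301S 2 at 133 CPM and a log2 fold change of -0.15 without it. Slc5a3 shares exons with Mrps6 on the same strand, which had a log2 fold change of -0.07.

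The threshold admitted some members through few libraries. Of the 113 members 94 had a mean of at least 10 CPM of the library total in both groups, 13 were under it in hMAPT-P301S and 6 in Non-Tg, and a difference in a member that passed through 1 group is tied to its selection. Those under 10 CPM in hMAPT-P301S included Slc24a1, Slc25a38, Slc30a10, Slc35a5 and Slc39a12, and those under it in Non-Tg included Slc26a1 and Slc35f6. Without its highest library the mean of 13 members was under 10 CPM. The clearest case was Slc22a8, an organic anion carrier, with 164 CPM of the library total in Non-Tg 3 and at most 6.41 in any other library, which kept it out of the genes tested. Non-Tg 3, the library with the fewest counts, was also the highest for Slc35d2 (68.6, next library 19.4), Slc25a38 (76.1, next 12.1), Slc7a2 (59.4, next 16.8) and Slc7a11 (24.2, next 24.0). The members nearest above the threshold were Slc30a10 (10.3), Slc7a11 (10.1) and Slc9a5 (10.0), and the genes nearest below it were Slc35b2 (9.79), Slc27a1 (9.72) and Slc37a3 (9.58 CPM of the library total).

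Other genes of transport came from lists chosen by function. Of 33 tested carriers with other symbols 1 rose and 0 fell (median log2 fold change 0.13), beside 2.37% and 1.50% of all genes. Mfsd12, a lysosomal cystine importer gene, was the one that rose. It measured 10.8 ± 7.94 CPM in Non-Tg and 48.8 ± 18.7 in hMAPT-P301S (SD, n = 6 each; log2 fold change 2.18 ± 0.52, adjusted p = 0.0137). Its call was lost without hMAPT-P301S 1 (adjusted p = 0.0517) and with the mitochondrial share as a covariate (0.0598). The lysophospholipid exporter Spns1 (1.80 ± 0.53, adjusted p = 0.0534), the pyrophosphate and ATP exporter gene Ank (1.21 ± 0.37, 0.0616) and the mitochondrial uncoupling protein gene Ucp2 (1.06 ± 0.33, 0.0636) did not pass with edgeR. All 3 passed with DESeq2, which called 7.40% of all genes tested.

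Among all genes tested 2.37% rose and 1.50% fell. Among 13 tested partners of carriers and pumps that set ion gradients, 1 rose and 0 fell (median 0.34). Of the others, the pump regulator gene Fxyd5 (log2 fold change 2.42 ± 0.83, adjusted p = 0.110) and the calcium pump gene Atp2b1 (0.41 ± 0.20, 0.323) did not pass with edgeR. Fxyd5 passed with DESeq2 (adjusted p = 0.0339), which called 7.40% of all genes tested.

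In the other 3 lists 0 genes passed with edgeR, beside 3.87% of all genes tested. The genes tested were 12 enzymes of glutathione, glutamine and arginine metabolism (median -0.17), 15 genes of amino acid sensing by mTORC1 (-0.14) and 5 metallothioneins and metal regulators (0.48). Genes with the smallest p included Ggt5, a gamma-glutamyl transferase gene (-2.29 ± 0.76, adjusted p = 0.0922, and 0.0193 in DESeq2, where it passed beside 7.40% of all genes tested), Asl (1.58 ± 0.78) and Gsr (-0.96 ± 0.64) in the first list. In the second they were Flcn, the folliculin gene (0.65 ± 0.31), Rraga (-0.79 ± 0.46), Sesn1 (-0.47 ± 0.33) and Tsc2 (0.56 ± 0.39). In the third they were Mt1, a metallothionein gene (1.68 ± 0.76), the metal-responsive factor gene Mtf1 (0.48 ± 0.43), the superoxide dismutase gene Sod1 (0.50 ± 0.51) and the copper pump gene Atp7a (-0.01 ± 0.23).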

How the data were processed

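RNA from sorted brain myeloid cells of 12 libraries, 6 a group, was measured by RNA-seq. For each library the authors deposited a raw count and a size-factor-adjusted RPKM value per Entrez gene number, per the file headers. Reads were aligned with GSNAP to GRCm38, per the submitters' processing notes; no source at hand names the counting tool, the annotation or the strandedness. This was checked for the 9468 genes with a count in every library. Each of their RPKM values equalled the count times 1 constant per library and 1 per gene (largest relative deviation 1.9e-14). Of the gene numbers 31049 (85.0%) matched a symbol in RefSeq on GRCm38.p6, which also gave coordinates and promoters; exon overlaps came from GENCODE.

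Totals ran from 1196069 to 4145069 counts. The main test was edgeR 4.0.16 (R 4.3.3): TMM factors, filterByExpr with a minimum count of 10, a robust quasi-likelihood fit and Benjamini-Hochberg adjustment at 0.05 over all 10022 genes tested, of which 112 were members. Values by library are TMM-scaled CPM unless the library total is named. SD is over 6 libraries. SE was derived as the absolute log2 fold change over the square root of the quasi-likelihood F statistic, and 95% intervals were built from that SE. Groups came from the genotype label, and replicate numbers only name libraries in accession order. The fit was tested on simulated counts with 1 spread for all genes, smaller than that of these data (common biological coefficient of variation 0.64). The simulation therefore does not show how the fit behaves at the spread of these data. Alternatives were other scaling factors, DESeq2 1.42.0, limma 3.58.1 (voom, and log2(RPKM + 1)), other filters, other member thresholds, leaving out mitochondrial genes with Malat1, and leaving out each library in turn; a mitochondrial covariate was added after seeing the data. Named genes were those that passed, the 12 members with the highest mean CPM, per role group at most 4 carriers with the lowest unadjusted p, the 3 members nearest above and the 3 carriers nearest below the threshold, and up to 4 genes with the smallest p in each other list; remaining members are given so that each is accounted for, except a few genes that are not reported here. The members, role groups and lists were chosen with earlier results of these data known.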

Additional observations from a re-analysis of the deposited data

Results flagged for a closer look

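In 12 of 130 groups of 6 libraries, 1 library stood apart from the other 5 by Dixon's test at the 95% level; chance alone does this in about 1 group in 20. Non-Tg 4 was high for the mitochondrial iron importer gene Slc25a37 (530 CPM, others 288 to 340), the ascorbate importer gene Slc23a2 (121 CPM, others 25.0 to 39.8) and the calcium exchanger gene Slc24a2 (112 CPM, others 29.2 to 44.6). Non-Tg 2 was low for the copper carrier gene Slc31a2 (18.1 CPM, others 40.0 to 63.4) and for Slc46a3, a lysosomal carrier gene (19.6 CPM, others 56.8 to 83.2). Non-Tg 3 was high for Slc35b1 (111 CPM, others 11.4 to 18.1), and Non-Tg 5 was at 0 for the sodium-glucose carrier gene Slc5a2 (others 8.22 to 23.5 CPM).

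In hMAPT-P301S, library 5 was high for Slc26a1 (51.4 CPM, others 17.4 to 21.4) and low for Slc24a1 (0.317 CPM, others 5.81 to 17.9). Library 4 was low for Slc45a4 (3.87 CPM, others 19.6 to 28.5) and for the metallothionein gene Mt1 (1.29 CPM, others 12.2 to 24.5). Library 2 was high for the inositol importer gene Slc5a3 (133 CPM, others 32.4 to 42.0).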

How the results depend on the processing

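The count of called genes (genotype difference, all genes tested), 388 as reported, was 742 with DESeq2 and 1063 with no filter on low counts, and 273 to 386 when each library was left out in turn. Members called higher numbered 0 as reported, 1 with DESeq2 (Slc26a1) and 1 with no filter (Slc15a3), and 0 to 1 with a library left out (Slc15a3 without Non-Tg 1, Slc23a2 without Non-Tg 4). Members called lower numbered 1 as reported, 3 with DESeq2, 2 with no filter, 0 with a filter at a mean of 1 CPM and 3 with the mitochondrial covariate, which was chosen after seeing the data (Slc30a10, Slc30a4 and Slc39a12), and 0 to 2 with a library left out. That count was 0 without Non-Tg 4 or without hMAPT-P301S 2, 3 or 5, and 2 without Non-Tg 6; without hMAPT-P301S 4 the 1 called was Slc30a4 in place of Slc25a37. The median log2 fold change of tested expressed solute carriers ran from -0.055 to 0.087 over the libraries left out. Member thresholds of 5 and 20 CPM changed none of these counts. The causes were not tested.

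Some estimates changed sign, and none of those listed here passed the threshold before or after. With the mitochondrial covariate the log2 fold changes were 0.094 for Slc29a3, 0.071 for Slc7a8, 0.24 for Slc36a1, -0.13 for Slc10a7, -1.50 for Slc16a13, -2.23 for Slc9a5 and 0.10 for Atp7a. Among the members outside the named ones it also reversed Slc25a17 (-0.47), Slc25a43 (-0.75), Slc25a28 (-0.12), Slc25a46 (-0.042), Slc35a3 (0.93), Slc35e1 (0.081), Slc3a1 (-0.48), Slc20a1 (-0.088) and Slc4a1ap (-0.33), and the other alternatives are not tabulated for these members except DESeq2. Slc7a11 was at 0.0037 with upper-quartile factors, 0.059 with no filter and 0.055 with the filter at 1 CPM, and Slc35b2 at 0.49 with voom. Atp7a was at 0.0014 with upper-quartile factors, 0.083 with voom, 0.028 on log2(RPKM + 1), 0.066 with no filter and 0.065 with the filter at 1 CPM. With a library left out the ranges were -0.26 to 0.10 for Slc12a2, -0.20 to 0.65 for Slc16a10, -0.18 to 0.067 for Slc36a1, -0.15 to 0.75 for Slc5a3, -1.22 to 0.081 for Slc35b1, -0.095 to 0.80 for Slc16a13, -0.63 to 0.46 for Slc7a11, -0.36 to 1.88 for Slc9a5, -0.79 to 0.43 for Slc35b2 and -0.086 to 0.20 for Atp7a. No paired analysis was possible because the labels give no replicate numbers shared between the groups.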
